A study of Mus musculus with 8 samples.

Results

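The comparison described here set 4 arrays of co-cultures given MRK-003 against 4 arrays of co-cultures given its solvent DMSO, all 8 arrays of the series. MC3T3-E1 osteoblasts, an established line from mouse calvaria, were grown with tumour cells that carried an empty vector or overexpressed the Notch ligand Jagged1. There were thus 4 groups (vector or Jagged1 cells, each with DMSO or MRK-003) of 2 biological replicates. MRK-003 inhibits gamma-secretase. Every co-culture was labelled with Cy3 and hybridised beside a commercial mouse reference RNA in Cy5, so a level below is the log2 ratio of Cy3 over Cy5. Each MRK-003 array was subtracted from the DMSO array of the same tumour cells and replicate number, with the sign set so that a positive value means a higher level with MRK-003. This gave 4 pairs, and the question was which genes differed in the same direction in all 4, that is with and without added Jagged1. The sources used here do not give the dose or duration of MRK-003, the tumour line or how far the osteoblasts were separated from the tumour cells. All results come from this 1 line, and in bulk RNA fewer cells of a kind and less RNA per cell cannot be told apart.

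Notch receptors are cut by gamma-secretase after a ligand on a neighbouring cell has bound. The freed intracellular part enters the nucleus, joins the DNA-binding protein RBPJ and switches on targets such as the repressors of the Hes and Hey families. In bone, Notch signals regulate the maturation of osteoblasts and, through factors that osteoblasts secrete, the formation of osteoclasts. Gamma-secretase also cuts many other membrane proteins, so an inhibitor can act outside the Notch pathway.

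The arrays of replicate 1 were brighter than those of replicate 2. The median Cy3 signal ran from 165 to 204 on the replicate 1 arrays and from 76.5 to 117 on the replicate 2 arrays, and 71.4% to 89.4% of spots were well above background in Cy3. Replicate 1 of all groups shared a slide, as did replicate 2, and on both slides DMSO arrays held positions 1 and 2 and MRK-003 arrays positions 3 and 4. Treatment and position on the slide can therefore not be told apart. Of 12 defining osteoblast markers, 11 were on the array and all 11 were well above background on all 8 arrays. This flag did not single out osteoblasts. So were 14 of 16 listed macrophage markers, 11 of 12 osteoclast markers and 18 of 22 epithelial markers. Nothing in the labels says how independent the biological replicates were, and p-values measure only the spread between these arrays.

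The number of shared differences depended on what was taken as error. A paired fit in limma treated the 4 pairs as replicates, so any difference in effect between the co-cultures counted as error. In it, 1 of 23438 genes passed a Benjamini-Hochberg adjusted p of 0.05 with the same sign in all 4 pairs. That gene, Ier2, was lower with MRK-003 (0.00427% of genes), and 0 genes were higher (0%). Before adjustment 1701 genes with a higher and 1849 with a lower level in all 4 pairs had a p under 0.05, and at an adjusted p under 0.10, a threshold added after the data were seen, 165 and 319 passed. A second fit gave each of the 4 groups its own mean and the replicate number a term of its own, and averaged the effect over both co-cultures. This group-mean fit called 954 genes higher (4.07% of those tested) and 957 lower (4.08%) that also had the same sign in all 4 pairs. Leaving out 1 array in turn gave 329 to 1215 higher and 356 to 1227 lower, with the lowest counts without Jagged1 MRK-003 replicate 2. Without the limit on extreme local backgrounds it called 297 and 295. With no test at all, 2966 genes (12.7%) were higher and 2775 (11.8%) were lower in all 4 pairs. The 4 MRK-003 arrays did not overlap the 4 DMSO arrays for 927 higher and 1117 lower genes of the 23438. A lack of overlap, given for some genes below, was thus not particular to them. In what follows, "rose" and "fell" mean that a gene passed the group-mean fit in all 4 pairs. The planned rule for calling genes was the paired fit, so these words depart from it and rest on an alternative fit. In every fit without 1 array, above and below, the same sign was required only in the pairs that kept both arrays. Those counts thus follow a looser rule than the counts over all arrays. Counts in gene lists stand beside the 4.07% and 4.08% of all genes that rose and fell. The paired fit's adjusted p is given beside the main examples.

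The effect was mostly larger where Jagged1 had been added. The SD of the differences over all genes was 0.20 and 0.26 in the vector pairs and 0.32 and 0.42 in the Jagged1 pairs. Genes more than 1 log2 unit lower with MRK-003 numbered 39 and 41 in the vector pairs and 223 and 388 in the Jagged1 pairs. Of the genes called by the group-mean fit, 896 of 954 higher and 818 of 957 lower genes had the larger difference with Jagged1 cells. The share over all genes was not counted, so these counts cannot show a trait of the called genes. A test of the difference between co-cultures called 0 genes (0%) in the paired design, where 2210 had an unadjusted p under 0.05, and 89 genes (0.38%) in the group-mean fit.

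**Figure D1:**
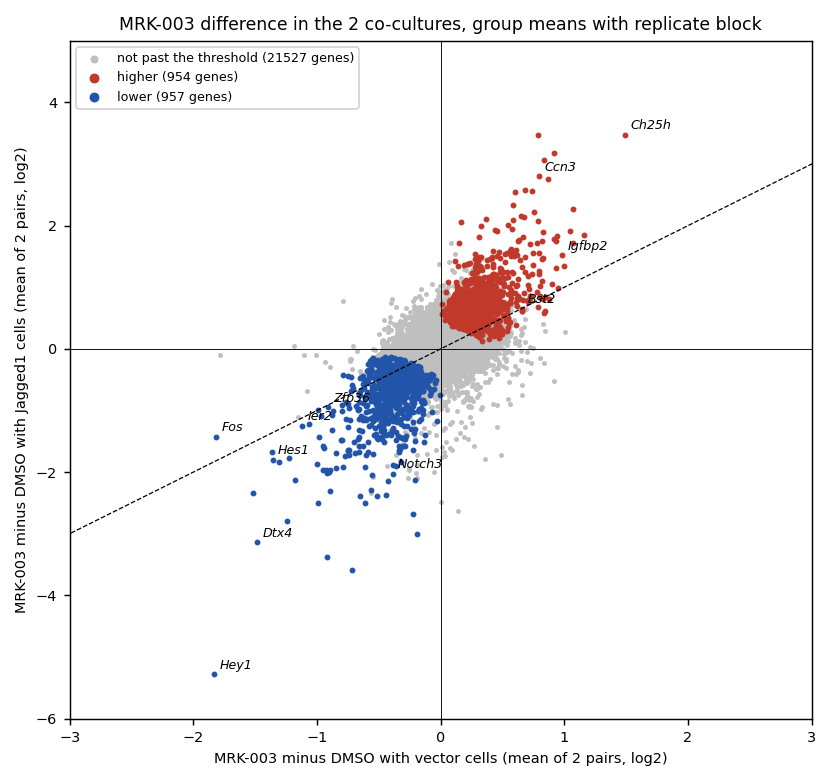
Mean MRK-003 minus DMSO difference (log2) of each of 23438 genes with vector cells (horizontal axis, 2 pairs) and with Jagged1 cells (vertical axis, 2 pairs). Red points are the 954 genes that rose and blue points the 957 that fell by the group-mean fit, and the dashed line marks equal differences. Ier2, Zfp36 and Bst2 lie near that line, while Hey1, Dtx4 and Notch3 lie far below it.

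Ier2, an immediate early gene whose RNA is induced within minutes of growth factor signals, was the 1 gene that passed the paired fit. Its level was -0.42 and -0.84 with vector cells in DMSO and -0.77 and -0.56 with Jagged1 cells in DMSO. With MRK-003 it was -1.65 and -1.85 with vector cells and -1.99 and -1.83 with Jagged1 cells. All 4 MRK-003 arrays lay below all 4 DMSO arrays. The mean difference was -1.18 ± 0.07 (SE, n = 4 pairs), a 2.27-fold decrease, at an adjusted p of 0.0446 in the paired fit and 0.00193 in the group-mean fit. Without 1 pair the adjusted p of the paired fit was above 0.05 each time, up to 0.274 without Jagged1 replicate 1, at differences from -1.24 to -1.16. The effect with Jagged1 cells minus that with vector cells was -0.12 (95% confidence interval -0.48 to 0.23). A second Ier2 probe, also well above background on all 8 arrays, was less even, at -0.49, -1.52, -0.81 and -1.53 with a mean of -1.09, and its larger differences were in both replicate 2 pairs.

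Zfp36, an RNA-binding protein that speeds the decay of cytokine messages and is itself an immediate early gene, followed the same pattern. Its differences were -0.97 and -0.85 with vector cells and -0.88 and -1.02 with Jagged1 cells. Its level was -0.59 to -0.16 over the 4 DMSO arrays and -1.54 to -1.13 over the 4 MRK-003 arrays, with no overlap. The mean of -0.93 ± 0.07 did not pass the paired fit (adjusted p = 0.0532) and passed the group-mean fit (adjusted p = 0.0015). The effect differed between co-cultures by -0.04 (95% confidence interval -0.37 to 0.30). A second Zfp36 probe, well above background on all 8 arrays, had a mean of -0.72 and was less even. It was at -0.89 and -0.73 with vector cells and at -0.83 and -0.43 with Jagged1 cells.

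Zfp36 was, of the immediate early genes with the smallest p in the paired fit, the one whose start region was in the RefSeq promoter table used here (build GRCm38.p6). Its 250 bases before the start are shown with capitals on a CArG box, the element bound by serum response factor, 58 bases before the start. The same stretch of Il6, described below, is shown with capitals on the reverse complement of the RBPJ core TGGGAA.
Zfp36 (chr7:28379229-28379478, - strand): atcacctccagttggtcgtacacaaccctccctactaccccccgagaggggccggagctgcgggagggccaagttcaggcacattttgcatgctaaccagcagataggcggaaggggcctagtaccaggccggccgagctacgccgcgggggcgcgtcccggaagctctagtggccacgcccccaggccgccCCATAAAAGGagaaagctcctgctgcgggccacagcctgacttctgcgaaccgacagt
Il6 (chr5:30012864-30013113, + strand): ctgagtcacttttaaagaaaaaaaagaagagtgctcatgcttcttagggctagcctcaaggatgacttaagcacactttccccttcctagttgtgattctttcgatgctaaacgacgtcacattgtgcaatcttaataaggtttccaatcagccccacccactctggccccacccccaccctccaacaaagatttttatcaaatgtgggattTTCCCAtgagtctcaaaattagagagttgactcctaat
TGGGAA or its reverse complement stood in 21.6% of all 32851 such windows and in 20.55% of those of the genes tested. It stood in 18.9% of the windows of genes that rose and in 23.4% of those of genes that fell. Of the 9 canonical Notch targets that fell, 5 had a window, and it stood in 0 of their 6 windows. Hes1, Hey1 and Dtx4 had no window, so their start regions were not searched. A CArG box, a motif chosen after the data were seen, stood in 1.47% of all windows, in 6 of 31 windows of the immediate early genes tested (19.4%) and in 1 of 8 windows of those that fell. These letters are a description of the windows and no evidence of binding.

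**Figure D2:**
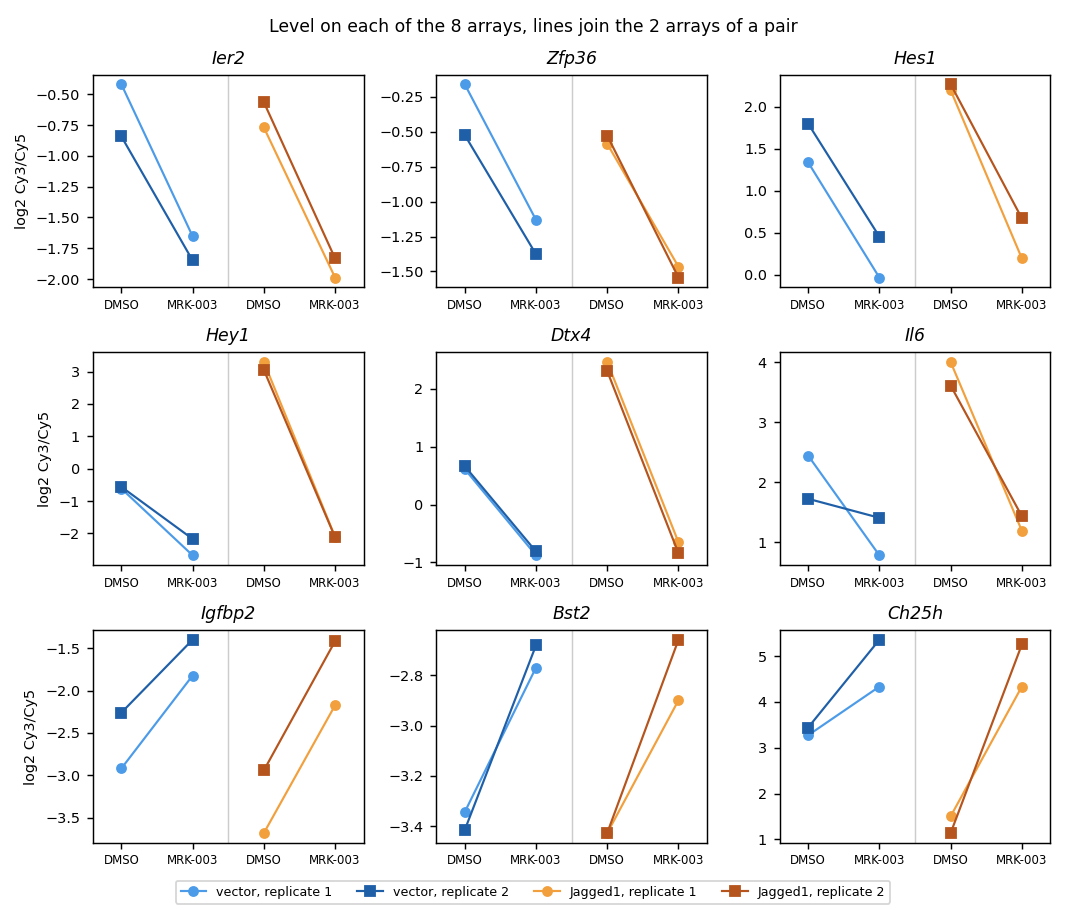
Level of 9 genes (log2 Cy3 over Cy5) on each of the 8 arrays, with vector cells in blue and Jagged1 cells in orange, circles for replicate 1 and squares for replicate 2. Each line joins the DMSO and MRK-003 arrays of a pair; the lines of Ier2 and Zfp36 have similar slopes in both co-cultures, while Hey1 and Dtx4 start higher with Jagged1 cells in DMSO and end at like levels.

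Of the canonical Notch targets tested, Hey1 had the largest mean decrease, and Hes1 differed less between the co-cultures than Hey1 did. Hes1, a basic helix-loop-helix repressor, had levels of 1.34 and 1.80 with vector cells and 2.20 and 2.27 with Jagged1 cells in DMSO. With MRK-003 they were -0.03 and 0.46 with vector cells and 0.20 and 0.67 with Jagged1 cells. The arrays of the treatments did not overlap. The mean difference of -1.58 ± 0.12, a 2.99-fold decrease, did not pass the paired fit (adjusted p = 0.0568) and passed the group-mean fit (adjusted p = 0.000386). It was larger with Jagged1 cells by -0.44 (95% confidence interval -0.88 to -0.01, adjusted p = 0.518 for the difference in the paired design).

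Hey1, a repressor of the same family, fell in every pair by amounts that differed with the tumour cells. Its level in DMSO was -0.61 and -0.56 with vector cells and 3.29 and 3.05 with Jagged1 cells. With MRK-003 all 4 arrays lay between -2.68 and -2.11. The differences were -2.06 and -1.61 with vector cells and -5.40 and -5.17 with Jagged1 cells (adjusted p = 0.0971 in the paired fit, 0.000107 in the group-mean fit). The co-cultures thus differed by -3.45 (95% confidence interval -3.94 to -2.96). Vector co-cultures, with no added ligand, still had a mean difference of -1.84.

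Dtx4, a ubiquitin ligase of the Deltex family that regulates Notch receptors, had the same form, with differences of -1.49 and -1.48 with vector cells and -3.12 and -3.15 with Jagged1 cells. Its MRK-003 levels of -0.88 to -0.65 were all below its DMSO levels of 0.61 to 2.47, and its 3 probes had mean differences of -2.31, -1.41 and -1.80. Notch3, a Notch receptor, differed by -0.53 and -0.24 with vector cells and by -2.17 and -1.88 with Jagged1 cells (adjusted p = 0.147 in the paired fit, 0.000662 in the group-mean fit). Notch1, another receptor, fell as well, with differences of -0.86, -0.47, -1.35 and -1.49 in the order vector replicates 1 and 2, Jagged1 replicates 1 and 2, the order used below for every group of 4 values.

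Further genes of the pathway had smaller differences with vector cells. Nrarp, a feedback inhibitor of Notch, was at 0.13 and -0.10 in the vector pairs and at -0.89 and -0.88 in the Jagged1 pairs, and was well above background on 4 of the 8 arrays. Its mean of -0.43 ranged from -1.71 to -0.15 under the alternatives run. Heyl, a further Hey repressor, was at -0.03, -0.02, -0.36 and -0.41 (adjusted p = 0.325 in the paired fit). A second Heyl probe was at -0.45, -0.12, -0.66 and -0.42, a mean of -0.41 beside -0.21, and both probes were well above background on all 8 arrays. Jag1, the ligand itself, was at -0.33, 0.06, -1.35 and -1.21, so the vector pairs had opposite signs. Hey2 was too dim to be tested. Of 28 canonical Notch targets tested, 9 fell and 1 rose, and the list median was -0.08 beside 0.01 for all genes. Those that fell also included the repressors Hes6 (-0.32, -0.50, -0.43, -0.80), Snai1 (-0.27, -0.36, -0.64, -0.70) and Snai2 (-0.55, -0.21, -1.14, -0.54) and the helix-loop-helix inhibitor Id3. The 1 that rose was the cyclin Ccnd1 (0.15, 0.40, 0.82, 0.70). Of 45 Notch receptors, ligands and processing genes, 7 fell and 0 rose. With 1 array left out, 7 to 10 targets fell, and 3 to 10 receptors, ligands and processing genes, the lowest without vector MRK-003 replicate 1 or Jagged1 MRK-003 replicate 2. Under other processing 2 to 9 of the latter fell. Of 53 other gamma-secretase substrates, 3 rose and 2 fell (4.07% and 4.08% of all genes did), with a median of 0.02. In all 4 pairs 8 were higher and 3 lower (12.7% and 11.8% of all genes). With 1 array left out 1 to 4 rose and 0 to 3 fell: 1 rose without replicate 2 of vector DMSO or vector MRK-003 or without either Jagged1 MRK-003 array, and 0 fell without vector DMSO replicate 1 or either Jagged1 MRK-003 array. The substrate that fell most was the cadherin Cdh2 (-1.05, -0.17, -0.85, -0.76).

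**Figure D3:**
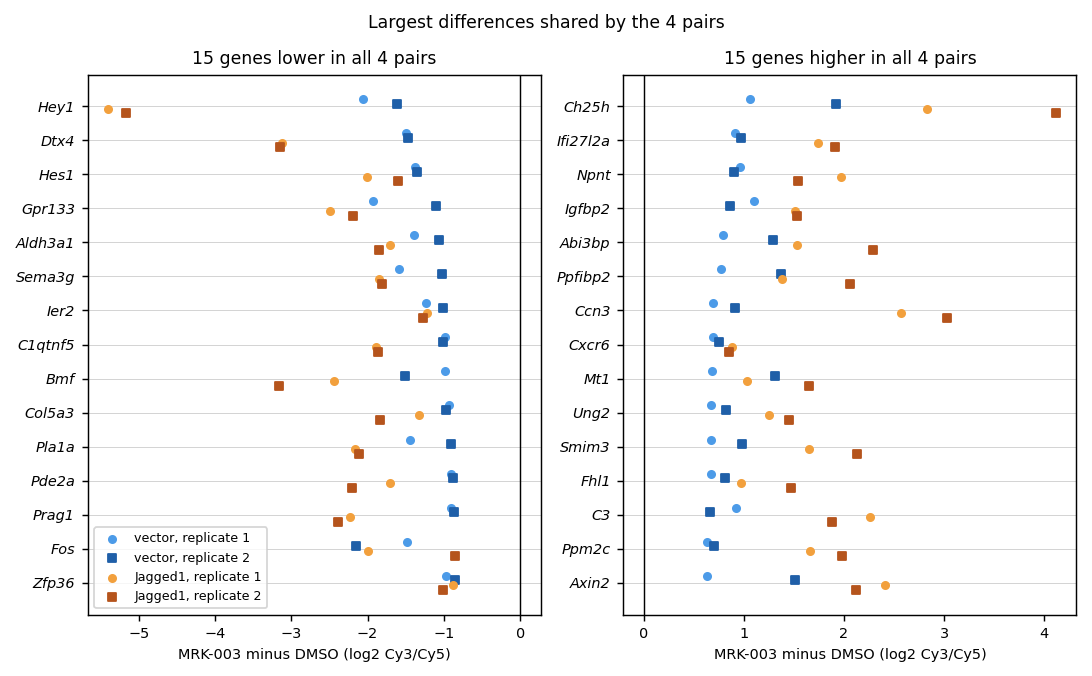
MRK-003 minus DMSO difference (log2) in each of the 4 pairs for the 15 genes that fell and the 15 that rose with the largest smallest pair difference, a choice made after their values were seen. Circles are replicate 1 and squares replicate 2, in blue for vector and orange for Jagged1 cells; for most genes the orange points lie farther from 0 than the blue points, while Ier2, Zfp36 and Cxcr6 have all 4 points close together.

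The 15 genes that fell furthest in their least affected pair were chosen after their values were seen. Besides Hey1, Dtx4, Hes1, Ier2 and Zfp36 they held the adhesion receptor Gpr133 (-1.93, -1.10, -2.49, -2.19), the aldehyde dehydrogenase Aldh3a1 (-1.40, -1.06, -1.71, -1.85) and the secreted semaphorin Sema3g (-1.59, -1.03, -1.85, -1.81). They also held C1qtnf5, a secreted protein of the C1q and tumour necrosis factor family (-0.99, -1.01, -1.88, -1.87), and Bmf, a BH3-only promoter of cell death (-0.98, -1.50, -2.44, -3.16). The phospholipase Pla1a, the phosphodiesterase Pde2a, the collagen Col5a3, the pseudokinase Prag1 and Fos made up the rest, at means from -1.66 to -1.27. All 15 passed the group-mean fit by the way they were chosen, and their adjusted p in the paired fit ran from 0.0446 to 0.0971. Other probes of some of these genes differed less: the other Gpr133 probes were at -0.15 and 0.04, the second Bmf probe at -0.07 and the second Pde2a probe at -0.20, all well above background on at least 7 arrays, while both C1qtnf5 probes were at -1.44 and -1.69. The second Col5a3 probe, well above background on all 8 arrays, was at -0.31, -0.18, -1.38 and -0.90, a mean of -0.69. With Cy3 alone the means of C1qtnf5 and Col5a3 were -2.41 and -2.14, from -1.44 and -1.27. Pdgfra, a receptor for platelet-derived growth factor and among the 5 lower genes with the smallest p in the paired fit, differed by -0.72, -1.04, -1.05 and -1.11 (adjusted p = 0.0679 in the paired fit), and its second probe by -0.20 on average.

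The immediate early genes split by direction. Of 32 tested, 11 fell and 4 rose (4.08% and 4.07% of all genes did), and 13 were lower and 5 higher in all 4 pairs (11.8% and 12.7% of all genes). Those that fell were Fos (-1.48, -2.15, -2.0, -0.85), Junb (-1.10, -0.63, -0.92, -1.09) and Jund (-0.52, -0.97, -0.93, -1.0) of the AP-1 transcription factor. They included the phosphatases that switch off MAP kinases, Dusp1 (-0.80, -1.18, -1.17, -0.81), Dusp4 (-0.58, -0.74, -1.64, -1.52) and Dusp6 (-0.81, -0.41, -0.93, -0.62). Btg2, which restrains proliferation (-1.24, -0.69, -1.27, -0.90), Klf10 and Ier5 fell with them, beside Ier2 and Zfp36. Other members of AP-1 rose, namely Fosl2 (0.45, 1.18, 1.19, 1.73) and Fosl1 (0.46, 0.32, 1.10, 0.57), as did the related factors Maff (0.39, 1.21, 0.61, 1.10) and Atf3 (0.36, 0.36, 0.43, 0.45). Among the 17 not called, Egr1 was at -1.80, -0.37, -1.28 and -0.08, with the values near 0 in the replicate 2 pairs. Klf2 was at 0.53, -0.60, -0.30 and -2.96. The list median was -0.46 and -0.27 in the replicate 1 pairs and -0.03 and -0.02 in the replicate 2 pairs, so the list's difference varied with the replicate number and slide, whose part in the result was not tested. Over the fits without 1 array, 8 to 11 members fell and 2 to 7 rose, with the lowest counts without vector DMSO replicate 2. Under other processing 8 to 11 fell and 1 to 4 rose.

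Outside that list, Ppp1r15a, which restores translation after stress, fell by similar amounts in all pairs (-0.73, -0.87, -0.78, -1.23). Of 37 genes of the unfolded protein and ATF4 stress response, 6 rose and 4 fell, with a median of -0.04. Among those that rose were Chac1 (0.53, 0.89, 0.43, 1.10), an enzyme that degrades glutathione, and the transcription factor Ddit3 (0.31, 0.49, 0.27, 0.21), both targets of ATF4. Among those that fell were Nupr1 (-0.67, -0.87, -1.21, -1.06) and Xbp1 (-0.17, -0.68, -0.60, -0.87). Leaving out 1 array gave 2 to 7 that rose and 2 to 5 that fell, the lowest without vector MRK-003 replicate 2.

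Of 39 genes of DNA replication tested, 25 rose and 0 fell, and 27 were higher in all 4 pairs and 1 lower. The list median was 0.14 and 0.17 in the vector pairs and 0.66 and 0.63 in the Jagged1 pairs. Examples were Pcna, the sliding clamp of the polymerases (0.18, 0.15, 0.82, 0.96), the helicase subunit Mcm3 (0.14, 0.61, 1.04, 1.00) and the cyclin Ccne2 (0.18, 0.38, 0.82, 1.65). The median of the genes of mitosis was -0.19 and -0.12 with vector cells and 0.37 and 0.40 with Jagged1 cells. Of these 38, 2 rose and 1 fell, and with 1 array left out 0 to 2 rose and 0 to 1 fell, with 0 in both directions without replicate 2 of vector DMSO, vector MRK-003 or Jagged1 MRK-003. Leaving out 1 array gave 13 to 23 replication genes that rose, the lowest without Jagged1 MRK-003 replicate 2, and 14 did without the limit on local backgrounds. Of 21 cell cycle inhibitors and G1 cyclins, 3 rose, the kinase Cdk6, the inhibitor Cdkn2c and Ccnd1, and 1, Btg2, fell.

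**Figure D4:**
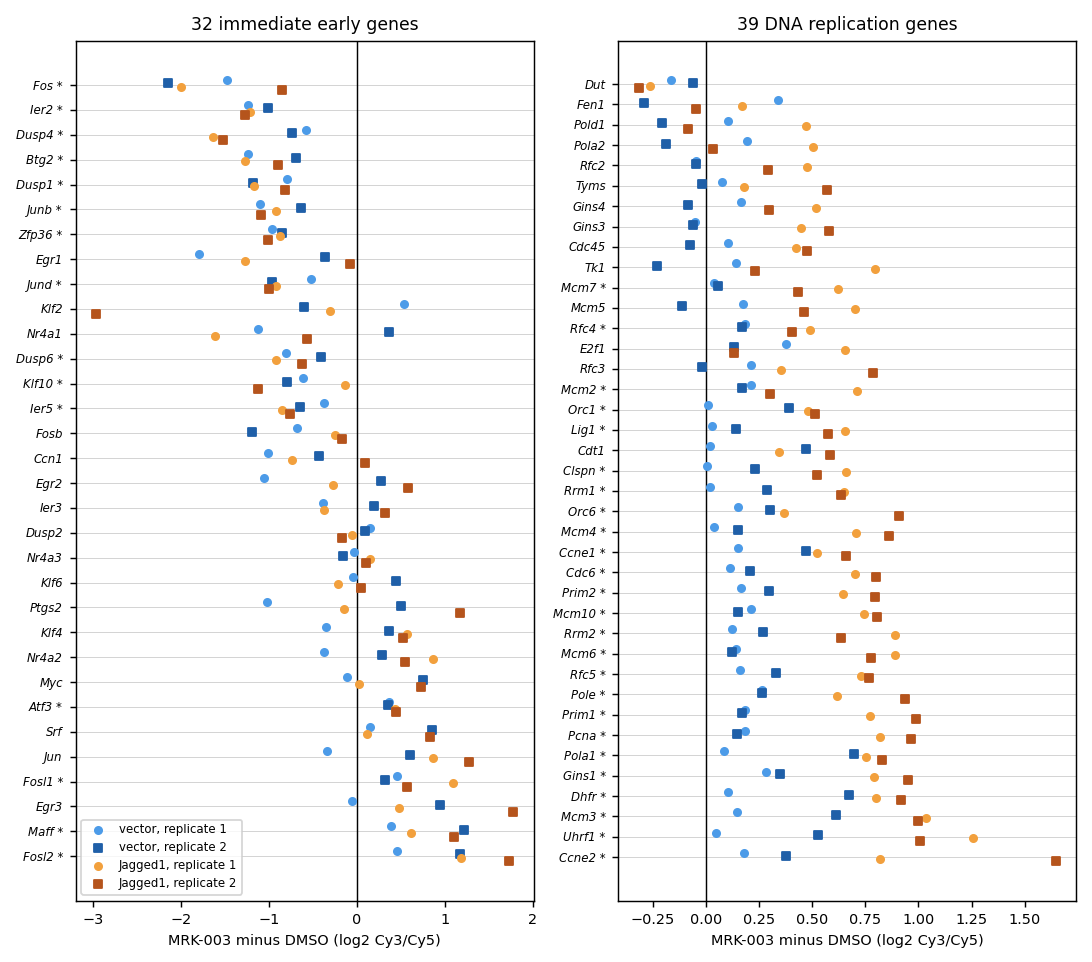
MRK-003 minus DMSO difference (log2) in each pair for the 32 immediate early genes (left) and the 39 DNA replication genes (right), ordered by mean; an asterisk marks genes that passed the group-mean fit in all 4 pairs (11 lower and 4 higher on the left, 25 higher on the right). On the left the blue and orange points mix, while on the right the orange points of the Jagged1 pairs mostly lie to the right of the blue ones.

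The lists of energy metabolism had medians above 0 in all 4 pairs. Of 33 oxidative phosphorylation genes, 10 rose and 0 fell, 16 were higher and 0 lower in all 4 pairs, and the list median per pair was 0.18, 0.15, 0.26 and 0.24. Cycs, the cytochrome that carries electrons to the last complex of the chain, had the largest mean among those that rose (0.36, 0.61, 0.62, 0.83), and the subunit Cox4i1 was at 0.55, 0.52, 0.24 and 0.35. Of 35 hypoxia and glycolysis genes, 13 rose and 1 fell. The list median was 0.20, 0.21, 0.25 and 0.19. They included the glucose transporter Slc2a1 (0.46, 0.96, 0.91, 1.15), the hexokinase Hk2 (0.33, 1.42, 0.38, 1.25), the lactate dehydrogenase Ldha (0.30, 1.26, 0.79, 1.06), the lactate transporter Slc16a1 (0.51, 0.65, 1.93, 1.97) and the mitochondrial protein Higd1a (0.54, 0.71, 0.83, 0.88). Vegfa, a growth factor for blood vessels and a standard hypoxia gene, fell instead (-0.62, -0.45, -1.24, -1.55). The oxidative phosphorylation count was 1 to 9 with 1 array left out, the lowest without replicate 2 of vector DMSO, vector MRK-003 or Jagged1 MRK-003, and 1 to 13 under other processing. The glycolysis count was 7 to 13 with 1 array left out, the lowest without Jagged1 MRK-003 replicate 2, and 7 to 14 under other processing.

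Of 32 interferon-stimulated genes, 9 rose and 1 fell, and 14 were higher in all 4 pairs. Bst2, which tethers budding viruses to the cell, was among the 5 genes with higher levels and the smallest p in the paired fit, none of which passed. It was at -3.43 to -3.34 on the DMSO arrays and at -2.90 to -2.66 on the MRK-003 arrays. Its differences were 0.58, 0.74, 0.53 and 0.77 (adjusted p = 0.0679 in the paired fit and 0.00314 in the group-mean fit). The effect with Jagged1 cells minus that with vector cells was -0.01 (95% confidence interval -0.38 to 0.37). Isg15 (0.48, 0.61, 0.47, 0.53), the antiviral Ifit1 (0.32, 0.96, 1.22, 1.65) and Ifit3 (0.34, 0.40, 0.89, 0.94) rose as well, and the transcription factor Irf1 fell (-0.28, -0.12, -0.24, -0.50). Between 5 and 8 rose with 1 array left out, the lowest without Jagged1 MRK-003 replicate 2. Without the limit on local backgrounds 2 rose and the median was 0.09 in place of 0.19.

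The other 4 genes with higher levels and the smallest p in the paired fit were the chemokine receptor Cxcr6 (0.69, 0.75, 0.88, 0.85), Igfbp2, Higd1a and the zinc finger factor Glis1 (0.63, 0.49, 0.77, 0.75). Each had an adjusted p of 0.0679 in the paired fit, and each passed the group-mean fit. Cxcr6 was well above background on 2 of the 4 DMSO arrays and on all 4 MRK-003 arrays, and its mean of 0.79 became 0.46 without the limit on local backgrounds and 2.56 with the scanner software's processed signals. Glis1 went from 0.66 to 0.39 and 1.05 under the same alternatives. A second Higd1a probe, well above background on all 8 arrays, had a mean difference of 0.26 beside 0.74. Igfbp2, a binding protein for insulin-like growth factors, had levels of -2.92, -2.26, -3.68 and -2.94 in DMSO and of -1.82, -1.40, -2.17 and -1.41 with MRK-003. These did not overlap, and its mean difference was 1.25 ± 0.13, a 2.38-fold increase. Other genes of that system that rose were Igf1 (0.34, 0.42, 1.38, 0.80), Igf2, the docking protein Irs1 (0.57, 0.99, 1.27, 2.18) and the protease Pappa2. The binding proteins Igfbp5 (-1.12, -0.10, -2.72, -2.29) and Igfbp7 (-0.55, -0.35, -1.02, -1.26) and the receptor Igf2r fell. In all 5 of 16 genes of this list rose and 3 fell, and 2 rose without vector DMSO replicate 2.

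The largest increase shared by all pairs was that of Ch25h, the enzyme that makes 25-hydroxycholesterol. Its levels were 3.27 and 3.44 with vector cells and 1.50 and 1.14 with Jagged1 cells in DMSO, and 4.34, 5.36, 4.34 and 5.25 with MRK-003. The differences were 1.06, 1.92, 2.83 and 4.12, with a mean of 2.48 ± 0.45 (adjusted p = 0.0922 in the paired fit, 0.00156 in the group-mean fit). The treatments did not overlap, and the Jagged1 co-cultures differed from the vector co-cultures mainly in DMSO. The 14 further genes chosen in the same way included the matrix proteins Npnt (0.96, 0.90, 1.96, 1.54), Abi3bp (0.79, 1.29, 1.53, 2.29) and Ccn3 (0.69, 0.91, 2.57, 3.03), and the interferon-inducible Ifi27l2a (0.91, 0.97, 1.74, 1.91). They also included the complement component C3 (0.92, 0.66, 2.26, 1.88), the metallothionein Mt1 (0.68, 1.31, 1.03, 1.65) and Axin2, a feedback inhibitor and standard target of Wnt signalling (0.63, 1.51, 2.41, 2.12). Axin2 was well above background on 2 of 4 DMSO arrays, and its mean of 1.67 became 2.69 with the processed signals. The second C3 probe was at 0.17 and the second Abi3bp probe at 0.29. The second Mt1 probe, well above background on all 8 arrays, was at 0.07, 0.96, 0.13 and 1.11, with the values near 0 in the replicate 1 pairs. At the chosen Mt1 probe the DMSO and MRK-003 arrays overlapped. Of 37 cholesterol and fatty acid synthesis genes, 5 rose and 0 fell, Ch25h among them, and 10 were higher in all 4 pairs. The others were enzymes of the late steps to cholesterol, led by Ebp (0.27, 0.28, 1.41, 1.50). Between 3 and 6 rose with 1 array left out, the lowest without replicate 2 of vector DMSO, vector MRK-003 or Jagged1 MRK-003.

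**Figure D5:**
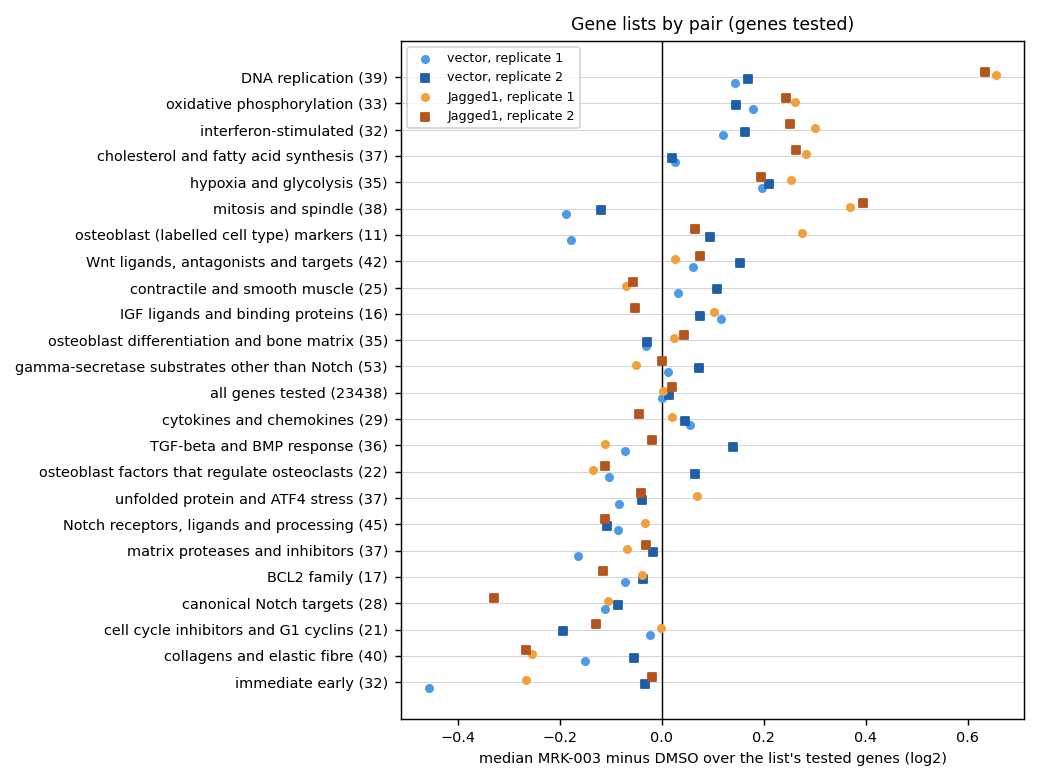
Median MRK-003 minus DMSO difference (log2) over the tested genes of each list, by pair, with the number of genes tested in brackets and all 23438 genes for comparison. The oxidative phosphorylation, interferon and hypoxia lists lie above 0 in all 4 pairs, the collagen list lies below 0 in all 4, and the mitosis list is below 0 with vector cells and above 0 with Jagged1 cells.

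Collagens and elastic fibre genes fell more often than they rose, with 14 lower and 4 higher of 40. The list median was -0.15, -0.06, -0.25 and -0.27. The basement membrane collagens Col4a1 (-1.01, -0.79, -1.89, -2.11) and Col4a2 (-0.66, -0.83, -1.32, -1.97), which share a promoter region, had the largest decreases with Col5a3 (-0.93, -0.97, -1.32, -1.84). The second Col5a3 probe differed less, at -0.31 and -0.18 in the vector pairs and a mean of -0.69. Col1a1, the main collagen of bone, was lower by little (-0.37, -0.21, -0.19, -0.65), and Col3a1 was at -0.43, -0.62, -0.37 and -1.27. Col12a1 (0.21, 0.48, 0.28, 0.48) and the fibrillin Fbn2 rose. With 1 array left out 6 to 14 fell, the lowest without either vector MRK-003 array or Jagged1 MRK-003 replicate 2, and 5 fell without the limit on local backgrounds. The 4 that rose became 0 to 2 in every fit without 1 array, with 0 without replicate 2 of vector DMSO, vector MRK-003 or Jagged1 MRK-003 or without vector MRK-003 replicate 1, and 0 without the background limit. Of 37 matrix proteases and inhibitors, 8 fell and 4 rose. Mmp13, the collagenase of bone (-1.03, -0.29, -1.75, -1.59), Mmp11 and 4 Adamts proteases were among those that fell, and the inhibitor Timp3 rose (0.47, 1.18, 1.19, 1.76). Under other processing 5 to 11 of this list fell.

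Osteoblast genes moved in both directions. Of 35 differentiation and bone matrix genes, 7 rose and 7 fell, with a median of 0.03. Bglap, which codes for osteocalcin, rose evenly (0.67, 0.65, 0.46, 0.77). The master regulator Runx2 (0.15, 0.78, 0.52, 1.14) and Alpl, the alkaline phosphatase of mineralising cells (0.06, 0.40, 1.40, 1.37), rose too. Tenascin C, Tnc (-1.16, -0.73, -1.63, -1.59), the pyrophosphate-producing Enpp1 (-0.57, -0.47, -1.15, -1.01) and Sparc (-0.30, -0.27, -0.19, -0.60) fell. Of 42 Wnt genes, 9 rose and 3 fell. Tnfrsf19 (0.42, 1.16, 3.28, 3.65) and Wnt10a (0.57, 0.80, 2.96, 2.18) rose with Axin2, and the antagonist Wif1 (-0.76, -0.26, -0.51, -0.75) and the transcription factor Lef1 (-0.86, -0.38, -0.43, -0.59) fell. In each fit without replicate 2 of vector DMSO, vector MRK-003 or Jagged1 MRK-003, 5 Wnt genes rose, and without Jagged1 MRK-003 replicate 2, 1 fell. Without either vector MRK-003 array or Jagged1 MRK-003 replicate 2, 2 of the osteoblast genes fell, and under other processing 2 to 7 did.

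Il6, a cytokine that promotes bone resorption by osteoclasts, was lower with MRK-003 in all 4 pairs but unevenly. Its levels were 2.45 and 1.73 with vector cells and 4.01 and 3.62 with Jagged1 cells in DMSO, and 0.78, 1.41, 1.19 and 1.44 with MRK-003. The differences were -1.66, -0.32, -2.82 and -2.18. It did not pass the paired fit (adjusted p = 0.109) and fell by the group-mean fit (adjusted p = 0.00408), at a mean of -1.74 ± 0.37. Of 22 factors by which osteoblasts regulate osteoclasts, 6 fell and 3 rose. Tgfb1 (-0.56, -0.61, -1.72, -1.62) and Tgfb3 (-0.49, -0.51, -0.49, -0.46), both stored in bone matrix, fell, the latter by nearly the same amount in every pair. The chemokine Ccl2, which attracts monocytes, rose (0.55, 0.86, 0.60, 0.97), as did its relative Ccl7 (0.77, 0.89, 0.41, 0.74). The interleukin 1 antagonist Il1rn (-0.72, -0.52, -2.38, -1.45) and the chemokine Cxcl12 (-0.14, -0.41, -0.51, -0.90) fell. Ccl7 and Il1rn were not among the 22 factors but in a list of cytokines and chemokines. Of its 29 genes tested, 5 rose and 5 fell, and with 1 array left out 3 to 6 rose and 4 to 5 fell. Of 36 TGF-beta and BMP response genes, 6 fell and 4 rose. The inhibitors Id1 (-0.30, -0.59, -0.55, -0.65) and Id3 (-0.38, -0.54, -0.66, -0.86) fell, while Id4 (0.58, 1.32, 0.49, 1.49) and the BMP antagonist Grem1 (0.58, 0.64, 1.17, 0.46) rose. Without vector DMSO replicate 2, 0 rose, and without Jagged1 MRK-003 replicate 2, 2 fell. The same vector DMSO array left 1 osteoclast-regulating factor that rose, and without vector MRK-003 replicate 1 or Jagged1 MRK-003 replicate 2, 4 fell.

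Marker lists of other cell types had medians of the mean difference from -0.01 to 0.05, beside 0.01 for all genes. Of all genes, 4.07% rose and 4.08% fell by the group-mean fit. The summed signals of 3 of these lists did not overlap between treatments. This was not particular to marker lists. The oxidative phosphorylation list, among others, summed to 524600 to 575000 on DMSO arrays and 623000 to 636800 on MRK-003 arrays. Of 18 epithelial markers tested, 1 rose, the transcription factor Trp63 (0.46, 1.02, 2.49, 2.64), and 0 fell. The summed Cy3 signal of the epithelial list was 7058 to 8012 on DMSO arrays and 7629 to 8650 on MRK-003 arrays, and Ocln and Esrp1 were not well above background on any array. Of 15 macrophage markers tested 0 rose and 0 fell, at a summed signal of 7363 to 7815 on DMSO arrays and 7969 to 8184 on MRK-003 arrays, without overlap. Of 11 osteoclast markers tested the integrin Itgb3 fell (-0.65, -0.44, -1.71, -1.71), at a summed signal of 11030 to 21920 on DMSO arrays and 9312 to 10320 on MRK-003 arrays, again without overlap. Of 12 skeletal muscle markers tested, Cdh15 (-0.99, -0.45, -3.78, -3.42) and Des (-0.14, -0.23, -0.51, -0.64) fell and Acta1 rose (0.50, 0.49, 0.22, 0.27), at a summed signal of 4691 to 12220 and 5558 to 8685. Without replicate 2 of vector DMSO, vector MRK-003 or Jagged1 MRK-003, 0 of these rose and 1 fell. Of 13 chondrocyte markers tested, 3 rose, among them Sox9 (0.00, 0.54, 1.54, 0.77), and 2 fell. With 1 array left out 1 to 3 of them rose, the lowest without replicate 2 of vector DMSO or vector MRK-003, and 1 to 2 fell, the lowest without vector MRK-003 replicate 1 or Jagged1 MRK-003 replicate 2. No adipocyte or endothelial marker passed. The endothelial list nevertheless summed to 15460 to 29940 on DMSO arrays and 11020 to 14900 on MRK-003 arrays, without overlap. By comparison the osteoblast markers summed to 362200 to 430700 on DMSO arrays and 332000 to 401700 on MRK-003 arrays. The part of other cells in the results above was not tested.

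On build mm7, the probes of the main genes were those of Ier2 on chromosome 8 at 83243584 to 83243618, Zfp36 on chromosome 7 at 25310682 to 25310724, Hes1 on chromosome 16 at 29738743 to 29739038 and Hey1 on chromosome 3 at 8669867 to 8669926. Those of Dtx4 were on chromosome 19 at 12146568 to 12146627, of Ch25h on chromosome 19 at 34175232 to 34175291, of Il6 on chromosome 5 at 29052734 to 29052793, of Igfbp2 on chromosome 1 at 73093964 to 73094023 and of Bst2 on chromosome 8 at 70001866 to 70001925. Whether a probe lies in a coding or untranslated part of its exon was not analysed here.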

How the data were processed

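The 8 arrays were 2-colour Agilent mouse arrays, with a co-culture in Cy3 and Universal Mouse Reference RNA in Cy5, and no dye swap. Per the file headers, the authors extracted the deposited intensity values with Feature Extraction 9.5.3.1, as mean signal and median local background per spot. Its processed signals and its log10 ratios, also deposited, were background-subtracted and dye-normalized per the file headers. The value table deposited by the authors was on a log2 scale and equalled the log2 ratio of processed Cy3 over Cy5 plus a constant per array. Flags deposited with the spots marked outliers, saturated signals and signals well above background.

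Local backgrounds over 2 times the array median were set to the median, the background was corrected by normexp (offset 50), and ratios were normalized by loess within each array. Of 41174 probes, 303 were left out for outlier marks and 7811 as dim (not well above background in Cy3 on both arrays of any group). The brightest probe stood for each of 23438 genes. A model with the pair as a block plus MRK-003 was fitted in limma 3.58.1 (R 4.3.3). Errors are standard errors, and all adjusted p-values are Benjamini-Hochberg over all genes tested. The group-mean fit, an alternative, used 4 group means plus the replicate number. Samples were paired by replicate number. Replicate 1 deviations from the group means correlated between all groups, at 0.371 to 0.855. Within tumour cell kind the correlations were 0.609 (vector) and 0.371 (Jagged1), and the highest was between the MRK-003 groups. Replicate number and slide coincided, so these values cannot show a pairing within tumour cell kind. Named genes were called genes, filled to 5 per direction with the smallest p, plus Hey1, Hey2, Heyl, Hes1, Nrarp, Notch3, Dtx4, Jag1 and Il6. The 15 per direction with the largest smallest pair difference in the group-mean fit, and list examples, were chosen after their values were seen. The comparison, members and gene lists were chosen with earlier results of these data known. With 4 pairs, the number of arrays limits the precision.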

Additional observations from a re-analysis of the deposited data

Results flagged for a closer look

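For 11 of the 39 genes named and tested, the MRK-003 effect differed between the co-cultures in the group-mean fit, which holds a term for the replicate (adjusted p under 0.05), and for 0 of them in the paired design, where the lowest adjusted p was 0.0662, for Hey1. Values are the effect with Jagged1 cells minus that with vector cells, log2. It was more negative with Jagged1 cells for Hey1 (-3.45), Dtx4 (-1.65), Notch3 (-1.64), Prag1 (-1.42), Jag1 (-1.14), Nrarp (-0.90) and C1qtnf5 (-0.88). It was more positive with Jagged1 cells for Ccn3 (2.00), C3 (1.28), Ppm2c (1.15) and Ifi27l2a (0.89). Of these, Nrarp and Jag1 did not have the same sign in the vector pairs, so their MRK-003 effect is not shared by all 4 pairs. The 89 genes called for this difference among all genes divided into 46 more negative and 43 more positive with Jagged1 cells. Of the 89, 32 were also called higher and 36 lower for the average effect. No named gene had a pair that stood apart from the other 3 by Dixon's test, which marks about 5% of groups by chance. Most of these genes were chosen for a small p in the paired fit or a large smallest pair difference. That choice favours pairs that agree, so the result cannot show how even the pairs were in general.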

How the results depend on the processing

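In the paired fit, genes higher and lower were 0 and 4 without the background limit, 1 and 3 with no background correction, 0 and 2 with Cy3 alone, 0 and 7 with median centring and 0 and 3 with no filter on dim probes. They were 0 and 0 with the processed signals, with the authors' table, with probes well above background on all 8 arrays, with the mean over probes, at an adjusted p under 0.01 and without any 1 pair (0 to 0). They were 183 and 247 with group means and no block, 66 and 170 with the pair as a random block and 165 and 319 at an adjusted p under 0.10. With group means and the replicate block they were 954 and 957. Genes whose effect differed between co-cultures were 2 with Cy3 alone, 5 with median centring, 5 with no filter on dim probes, 3 with the mean over probes, 4 with group means, 89 with the replicate block and 8 at 0.10. The counts of 954 and 957 became 297 and 295 without the background limit, 390 and 415 with processed signals, 401 and 434 with the authors' table and 304 and 320 at 0.01; without 1 array they were 329 to 1215 and 356 to 1227, moving by over 1.5 times for the higher genes except without replicate 1 of vector DMSO or Jagged1 DMSO, and for the lower genes except without Jagged1 DMSO replicate 1. Without 1 array, the same sign was required only in the pairs that kept both arrays, a looser rule. The alternatives on the fit with the replicate block and the threshold of 0.10 were chosen after seeing the data. The cause of the other changes was not tested. No named gene reversed its sign under an alternative run; over genes and alternatives, 543 values kept their side of the threshold, 109 passed only under the alternative and 8 no longer passed. Of 510 list medians, 480 moved by less than the spread between pairs and 30 by more. Dim spots on the replicate 2 arrays limit the depth of the low genes.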
